A study of Mus musculus with 8 samples.

Results

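The Obox genes (oocyte-specific homeobox) are a mouse family of related homeobox transcription factors. The members described here are the 5 genes listed in the deposited tables under the symbols Obox1, Obox2, Obox3, Obox5 and Obox6, of 23234 listed genes. Homeobox factors bind DNA through a helical domain of about the same fold in all of them, and the Obox domain belongs to the paired-like class that also holds Crx and Otx2. Obox1, Obox2, Obox5 and Obox7 transcripts are known from the oocyte, while Obox3 is known to be switched on in the embryo around the 2-cell stage. Together the family is known to be required for activation of the embryo's own genome in the mouse, and Obox6 alone is known to be dispensable for development.

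Transcript levels were measured by RNA-seq in 8 libraries of pooled mouse embryos, which form 4 groups of 2 by oocyte genotype and stage. Wild-type oocytes came from females given as f/f, which carry only floxed Tet3 alleles, and the labels do not say whether these females carried Cre. Tet3-null oocytes came from CKO females (Zp3-Cre, f/-), in which the Zp3 promoter drives Cre in growing oocytes against 1 floxed allele beside a null allele. All females were superovulated and all oocytes were fertilized in vitro with CAST/EiJ sperm, so every embryo also received a paternal Tet3 allele, and "Tet3-null" describes the oocyte. Each 2-cell library held 10 embryos taken at 30 h and each blastocyst library held 7 embryos taken at 96 h. Tet3 encodes an enzyme that oxidizes methylated cytosine after fertilization, and the series asks what its absence from the oocyte does to the embryo. Nothing in the labels states that the pools of 1 group had different mothers, so each p-value below compares a difference with the spread of these pools alone, and that spread may be technical.

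Levels are FPKM, the authors' fragment counts scaled by transcript length and by the mapped total of a library. Read totals are unknown, summed FPKM ranged from 600495 to 956335 per library, and 10607 to 11660 genes reached 1 FPKM. The second Tet3-null 2-cell library stood apart with 7101 genes at 0, where the rest of that stage had 5549 to 6080. The level of Tet3 was 10.8 and 7.54 FPKM in wild-type and at 3.28 and 4.41 FPKM in Tet3-null 2-cell libraries (log2 change -1.06, SE 0.25, adjusted p = 0.0690, limma), and the gene value does not separate the deleted part from the rest of the transcript. Marker sums followed the stage labels: the 18 blastocyst markers summed to 301 to 342 FPKM in 2-cell libraries and to 3794 to 5874 FPKM in blastocysts. Of 15 cumulus and granulosa cell markers, 12 were under 1 FPKM in every 2-cell library, 3 of them at 0, with a summed level of 25.5 to 44.5 FPKM. Sperm markers summed to 8.51 and 9.03 FPKM in wild-type and to 13.3 and 24.0 FPKM in Tet3-null 2-cell libraries.

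The members are close copies, and the promoter stretches below are shown to describe this, with no test of a link to transcript levels. They come from RefSeq on build GRCm38.p6, a later build than the mm9 used for the FPKM values, and 4 of the 5 members were matched in that table, all but Obox6. Each line gives the 150 bases before the transcript start, 5′ to 3′ on the strand of the gene, with TATATAA in capitals. Obox1 is at chr7:15547107-15547256 on the plus strand, Obox2 at chr7:15388701-15388850 on the plus strand, Obox3 at chr7:15639778-15639927 on the minus strand and Obox5 at chr7:15750220-15750369 on the plus strand.
Obox1: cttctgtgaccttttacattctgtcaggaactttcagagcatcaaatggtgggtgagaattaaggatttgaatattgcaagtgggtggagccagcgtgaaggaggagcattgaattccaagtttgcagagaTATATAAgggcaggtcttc
Obox2: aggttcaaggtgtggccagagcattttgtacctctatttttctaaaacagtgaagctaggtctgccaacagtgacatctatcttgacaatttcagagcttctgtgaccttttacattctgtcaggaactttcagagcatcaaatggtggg
Obox3: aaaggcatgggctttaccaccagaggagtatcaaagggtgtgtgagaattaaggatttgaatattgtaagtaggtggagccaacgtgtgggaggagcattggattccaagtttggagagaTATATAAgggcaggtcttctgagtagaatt
Obox5: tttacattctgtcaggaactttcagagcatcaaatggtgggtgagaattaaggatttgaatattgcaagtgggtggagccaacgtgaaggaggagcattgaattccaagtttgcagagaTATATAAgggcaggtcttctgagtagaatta

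Within windows of 250 bases before and 50 bases after the start, the Obox1 and Obox5 promoters aligned over 283 bases with 96.5% identity. The Obox1 and Obox3 windows aligned over 164 bases with 93.3% identity, and those of Obox3 and Obox5 over 175 bases with 92.6%. The Obox7 window was closer still to that of Obox5, with 97.8% identity over 271 bases. The Obox1 and Obox2 windows shared 203 identical bases in a row, displaced by 97 bases, so that the annotated start of Obox2 falls earlier in the same sequence. TATATAA began 19 bases before the start of Obox1, 30 before that of Obox3, 31 before that of Obox5 and 5 before that of Obox7. It was not found in the Obox2 window. With the displacement of 97 bases, the place matching the Obox1 motif would lie beyond the end of the Obox2 window. TATATAA was searched for after the sequences had been seen, and 3.24% of 32851 promoter windows of the same length hold it on either strand.

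Homeobox cores, the E-box and a further TATA motif were searched on both strands. TAATCC, the core bound by Crx and Otx factors, was found only in the Obox3 window, 168 bases before the start on the opposite strand, and is in 7.06% of all windows. The homeobox cores TAATTA (5.29% of windows) and TAATTG (8.0% of windows) were found in none of the 4 windows. CANNTG, the E-box, was present 2 times in Obox1, 4 times in Obox2, 2 times in Obox5 and not in Obox3, against 72.3% of all windows with a match. TATAAA was found only in Obox3, 189 bases before its start, and is in 13.6% of windows. No matches of different motifs overlapped in these windows.

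The transcripts share sequence as well, which bears on every level below, because the treatment of reads that fit more than 1 gene is not given in the sources used here. Of the 50-base stretches in annotated Obox1 transcripts, 42.6% were unique to the gene and 56.4% were also in Obox2 transcripts. The unique share was 34.9% for Obox2, 79.8% for Obox3, 81.9% for Obox5 and 95.0% for Obox6. For Obox3, 18.7% of stretches were also in an annotated pseudogene, counted by names that hold -ps, as those of the Obox pseudogenes do. Obox6 is thus the member whose reads are most separable. At 50 bases, a split of reads between Obox1 and Obox2 rests on the smaller part of their sequence. With 100-base stretches the unique share was 57.7% for Obox1, 52.8% for Obox2, 91.1% for Obox3 and 98.2% for Obox5. Every 100-base Obox6 stretch was unique, and at this length the larger part of Obox1 and of Obox2 was unique as well. The reference table holds 6 protein-coding Obox genes and 47 Obox pseudogenes, none of which is listed in the deposited tables under an Obox symbol. The sixth gene, Obox7, is listed under its older name Gm4745 and is given beside the members as a further copy, with 17.1% of its 50-base stretches also in Obox5.

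**Figure D1:**
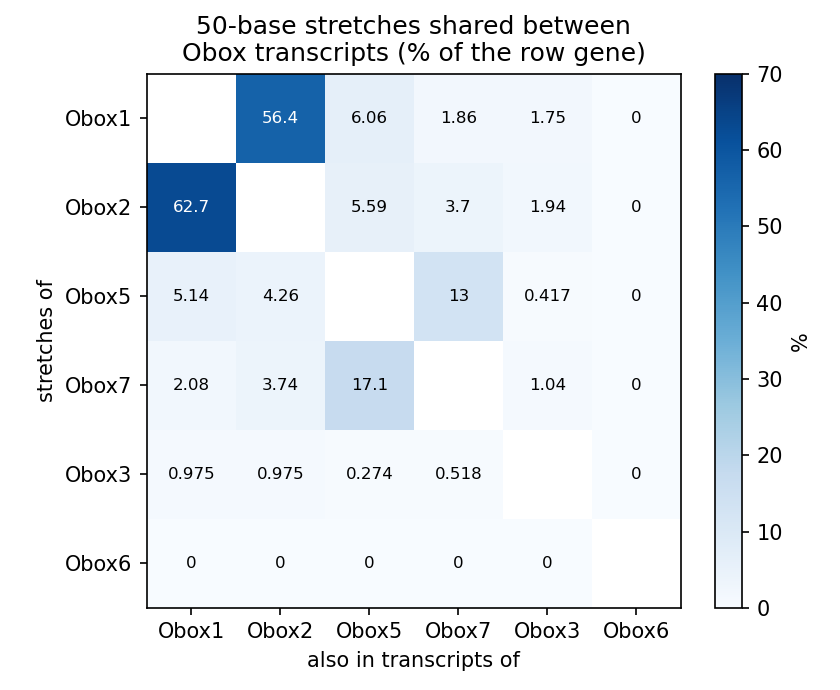
Percent of the 50-base stretches in the transcripts of each row gene that are also found in transcripts of the column gene (GENCODE M21). The pair Obox1 and Obox2 stands out at 56.4% and 62.7%, and Obox6 shares none with Obox1 or Obox2.

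At the 2-cell stage Obox3, Obox5 and Obox6 were among the 252 most abundant genes of every library, and with Obox1 they fell to low or trace levels in the blastocyst. Obox3 was at 1604 and 1515 FPKM in wild-type and at 1772 and 1490 FPKM in Tet3-null 2-cell embryos, which placed it between ranks 46 and 57 of all 23234 listed genes. Obox5 was at 763 and 782 FPKM in wild-type and at 1220 and 1669 FPKM in Tet3-null 2-cell embryos, with ranks from 51 to 128. Obox6 was at 783 and 810 FPKM in wild-type and at 549 and 409 FPKM in Tet3-null, with ranks from 110 to 252. These 3 genes therefore made up nearly all of the family's signal, and Obox5 and Obox6 were level with each other in wild-type only. Obox1 was at 98.9 and 81.2 FPKM in wild-type and at 122 and 228 FPKM in Tet3-null 2-cell embryos. Obox2 was listed at 0 in all 8 libraries, and how reads shared with Obox1 were counted is not given in the sources used here. Obox7, as Gm4745, was at 114 and 105 FPKM in wild-type and at 139 and 164 FPKM in Tet3-null.

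In wild-type 2-cell embryos the order of mean levels was Obox3 (1560 ± 63.3 FPKM, SD, n = 2), Obox6 (797 ± 19.0), Obox5 (772 ± 13.2), Gm4745 (109 ± 6.48) and Obox1 (90.1 ± 12.5). The lowest Obox6 value, 783 FPKM, lay just above the highest Obox5 value, 782 FPKM, and likewise the lowest Gm4745 value, 105 FPKM, lay just above the highest Obox1 value, 98.9 FPKM. In Tet3-null 2-cell embryos the order was Obox3 (1631 ± 199 FPKM), Obox5 (1444 ± 318), Obox6 (479 ± 99.0), Obox1 (175 ± 74.7) and Gm4745 (151 ± 17.5). There the values of Obox3 and Obox5 overlapped, as did those of Obox1 and Gm4745, and Obox6 lay apart from both pairs. FPKM is scaled by length, so these levels can be set beside each other, within the limit of shared reads.

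**Figure D2:**
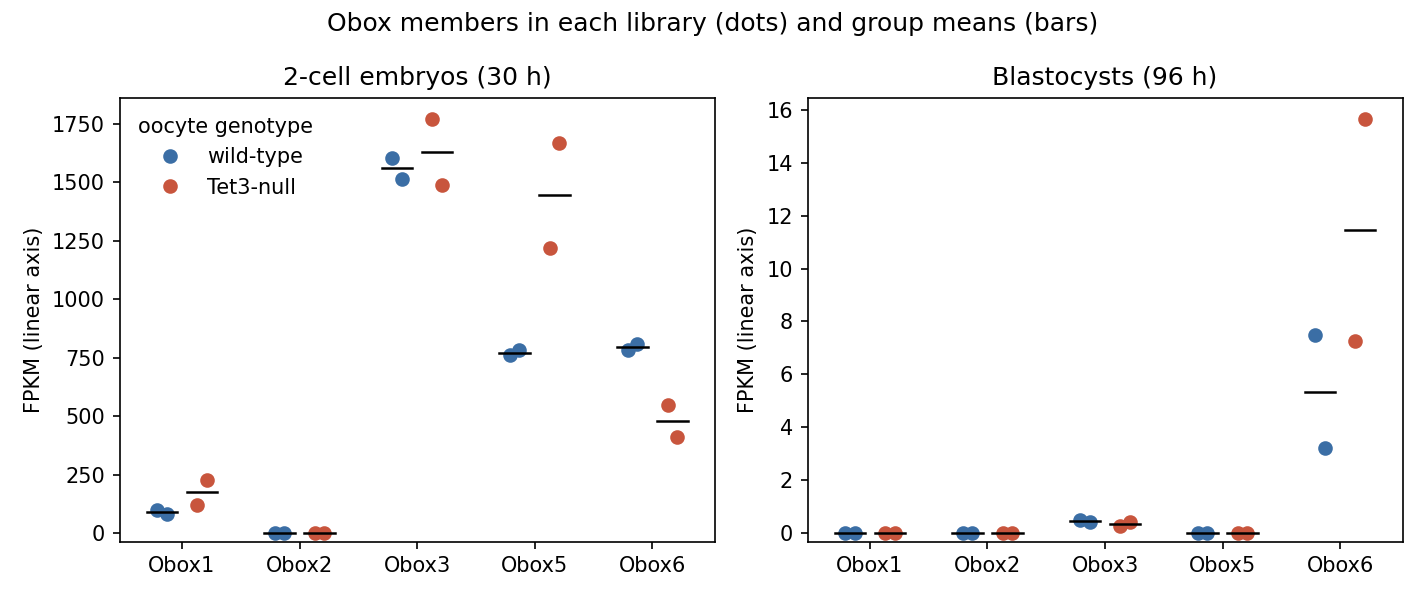
FPKM of the 5 members in each library (dots, 2 per group, blue for wild-type and red for Tet3-null oocytes) with the group mean as a bar, on separate linear axes for 2-cell embryos and blastocysts. Obox5 and Obox1 lie higher and Obox6 lower in both Tet3-null 2-cell libraries, and the blastocyst axis is far smaller than the 2-cell axis.

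In the blastocyst, Obox6 was the only member above 1 FPKM. Its wild-type values were 7.49 and 3.21 FPKM and its Tet3-null values 7.24 and 15.7 FPKM, so the groups overlapped. Obox3 was at 0.504 and 0.429 FPKM in wild-type and at 0.291 and 0.425 FPKM in Tet3-null. Obox1 was listed at 0 in all 4 blastocyst libraries, and Obox5 was listed at 0 in both wild-type libraries and at 0.0179 and 0.0176 FPKM in the Tet3-null libraries. Obox6 thus made up 93.7% and 88.2% of the family sum in wild-type blastocysts and 95.9% and 97.2% of it in Tet3-null blastocysts, against 24.1% and 25.4% in wild-type 2-cell embryos. In bulk pools, fewer cells with a transcript and less of it per cell cannot be told apart.

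The stage comparison asks how far each member declined between 30 h and 96 h. The mean FPKM of Obox3 was 3344-fold lower in wild-type and 4555-fold lower in Tet3-null blastocysts than in 2-cell embryos. Obox6 was 149-fold lower in wild-type and 41.9-fold lower in Tet3-null, smaller declines than those of Obox3. On the log2(FPKM + 1) scale, which understates the change of genes near 0, the wild-type stage changes were -6.50 for Obox1 (limma, adjusted p = 2.43e-06), -10.06 for Obox3 (adjusted p = 5.96e-08), -9.59 for Obox5 (adjusted p = 1.23e-07) and -7.06 for Obox6 (adjusted p = 7.91e-06). The Tet3-null stage changes were -7.39 for Obox1, -10.23 for Obox3, -10.45 for Obox5 and -5.34 for Obox6, with adjusted p from 4.38e-08 to 2.38e-05. All 4 members that passed the filter of 1 FPKM in at least 2 libraries fell in both genotypes, Obox2 having failed it, while 38.4% of all 13549 tested genes fell in wild-type and 35.1% in Tet3-null. Obox1, Obox3 and Obox5 passed that filter only through the 2-cell libraries in which they are high, so this count gives no support of its own.

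The family sum, given because the close copies share reads, was lower in blastocysts as well. It was 3249 and 3188 FPKM in wild-type and 3663 and 3796 FPKM in Tet3-null 2-cell embryos, and 7.99, 3.64, 7.55 and 16.1 FPKM in the blastocyst libraries in the same order. The mean sum was 554-fold lower in wild-type and 315-fold lower in Tet3-null blastocysts, with Obox6 carrying most of the blastocyst sum. Without Obox6 it was 5193-fold and 8648-fold lower. In 2-cell libraries the sum made up 0.541% and 0.510% of all summed FPKM in wild-type and 0.579% and 0.598% in the Tet3-null libraries.

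The comparison of genotypes at the 2-cell stage showed higher values of Obox1 and Obox5 and lower values of Obox6 in Tet3-null embryos, none of them past the test over all genes. The mean of Obox1 was 1.95-fold higher in Tet3-null embryos (90.1 ± 12.5 against 175 ± 74.7 FPKM, n = 2 each) and that of Obox5 was 1.87-fold higher (772 ± 13.2 against 1444 ± 318 FPKM). For both genes the 2 Tet3-null libraries lay above both wild-type libraries. Obox6 went the other way, with a mean 1.66-fold lower in Tet3-null embryos (797 ± 19.0 against 479 ± 99.0 FPKM) and both Tet3-null libraries below both wild-type libraries. Obox3 differed by a factor of 1.05, less than the spread between its libraries, and its groups overlapped.

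The log2 change was 0.89 for Obox1 (SE 0.29, adjusted p = 0.127, limma), 0.88 for Obox5 (SE 0.17, adjusted p = 0.0503), 0.06 for Obox3 (SE 0.15, adjusted p = 0.844) and -0.75 for Obox6 (SE 0.41, adjusted p = 0.314). Thus 0 of 4 tested members were called in limma, against 2.72% of all tested genes. Without adjustment 2 of 4, Obox1 and Obox5, were under 0.05 in limma, as were 23.7% of all genes. The groups did not overlap for 3 of 4 members, 2 higher and 1 lower in Tet3-null, while 47.5% of all tested genes did not overlap, 12.6% higher and 34.9% lower. The median log2 change was 0.47 over the 4 members and -0.17 over all tested genes. Gm4745 was 1.39-fold higher in Tet3-null (log2 change 0.46, SE 0.16, adjusted p = 0.143). Each SE rests on 1 spread per gene over all 8 libraries, and Obox1 and Obox5 are listed at or near 0 in blastocysts. With only the 2-cell libraries fitted in limma, the SE was 0.35 for Obox1 (adjusted p = 0.423) and 0.22 for Obox5 (adjusted p = 0.376). It was 0.19 for Obox3 and, lower than in the main fit, 0.20 for Obox6 (adjusted p = 0.388).

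The adjusted p of Obox5 lies at the threshold in the main fit, and which libraries enter the fit changes the call. Over the 8 alternatives other than leaving out 1 library, it ranged from 0.0437 to 0.376 (limma). The highest came from the fit of only the 2-cell libraries, and with the replicate block it was 0.149. Without the first Tet3-null 2-cell library, Obox5 had a log2 change of 1.11 (adjusted p = 0.00508) and Obox1 of 1.34 (adjusted p = 0.00742), both past the threshold, in a fit that called 857 genes higher and 2596 lower at this stage (25.5%) against 83 and 285 with all libraries. That fit has 1 Tet3-null 2-cell library, the one that stood apart in genes at 0, which is assumed to vary like the libraries of the other groups. Without the second Tet3-null 2-cell library, the log2 change was 0.66 for Obox5 (adjusted p = 0.0607), 0.44 for Obox1, 0.18 for Obox3 and -0.53 for Obox6, under the same assumption for the lone library. With values rescaled by the median of ratios, the split of all calls became 83 higher and 67 lower, the median of all genes moved from -0.17 to 0.01, and the log2 change was 1.16 for both Obox1 and Obox5 (adjusted p = 0.0516 for Obox5), 0.33 for Obox3 and -0.47 for Obox6.

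**Figure D3:**
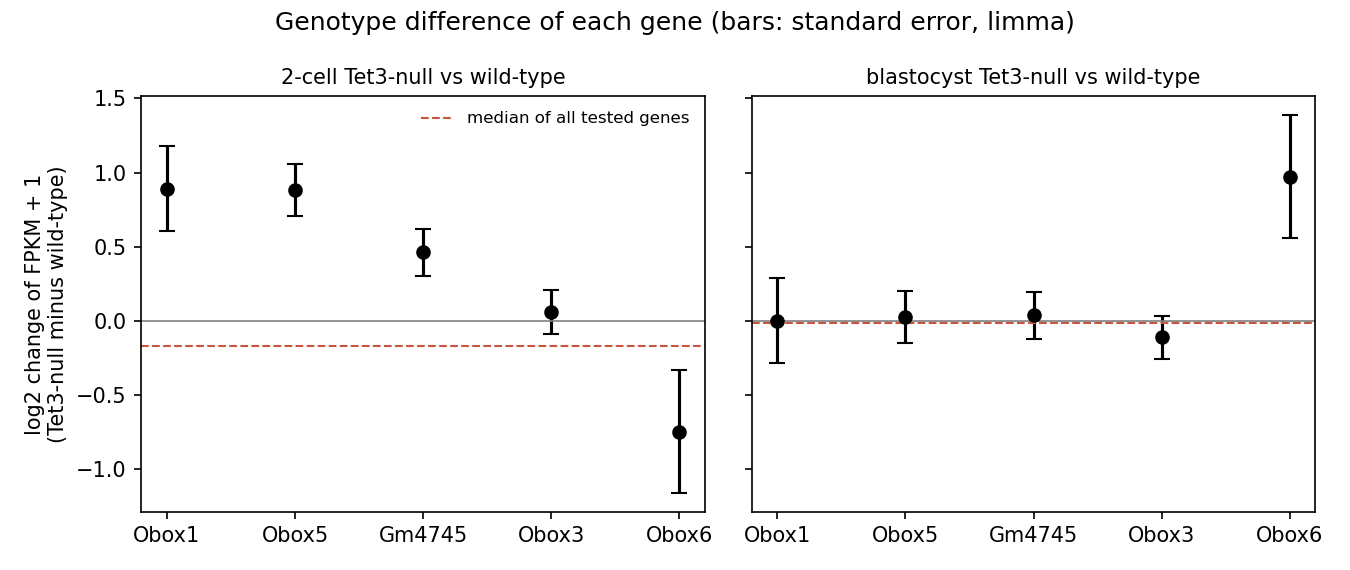
Log2 change of FPKM + 1, Tet3-null minus wild-type, for 4 members and Gm4745 (the listed name of Obox7), with limma standard errors as bars, at the 2-cell stage (left) and in blastocysts (right). The dashed line is the median of all tested genes, -0.17 at the 2-cell stage. In the left panel Obox1 (0.89) and Obox5 (0.88) lie above the zero line, Obox3 near it and Obox6 (-0.75) below it. In the right panel Obox6 (0.97) lies above it and the other genes near it.

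The makeup of the family sum is given beside its size, since Obox5 and Obox6 lay on opposite sides of wild-type. The 2-cell sum was 1.16-fold higher in Tet3-null embryos (3218 ± 43.6 against 3730 ± 94.3 FPKM), with no overlap between groups, and without Obox6 it was 1.34-fold higher. Obox5 made up 23.5% and 24.5% of the sum in wild-type and 33.3% and 44.0% in the Tet3-null libraries. Obox6 made up 24.1% and 25.4% in wild-type and 15.0% and 10.8% in the Tet3-null libraries. The ratio of Obox5 to Obox6 within a library, which does not depend on library scaling, was 0.974 and 0.965 in wild-type and 2.22 and 4.08 in the Tet3-null libraries. The ratio of Obox5 to Obox1 did not separate the genotypes, at 7.71 and 9.62 in wild-type and 9.96 and 7.32 in the Tet3-null libraries. The share of Obox3 was 49.4% and 47.5% in wild-type and 48.4% and 39.3% in the Tet3-null libraries, so that the second Tet3-null library alone stood lower. These shares are given as descriptions, with no test.

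**Figure D4:**
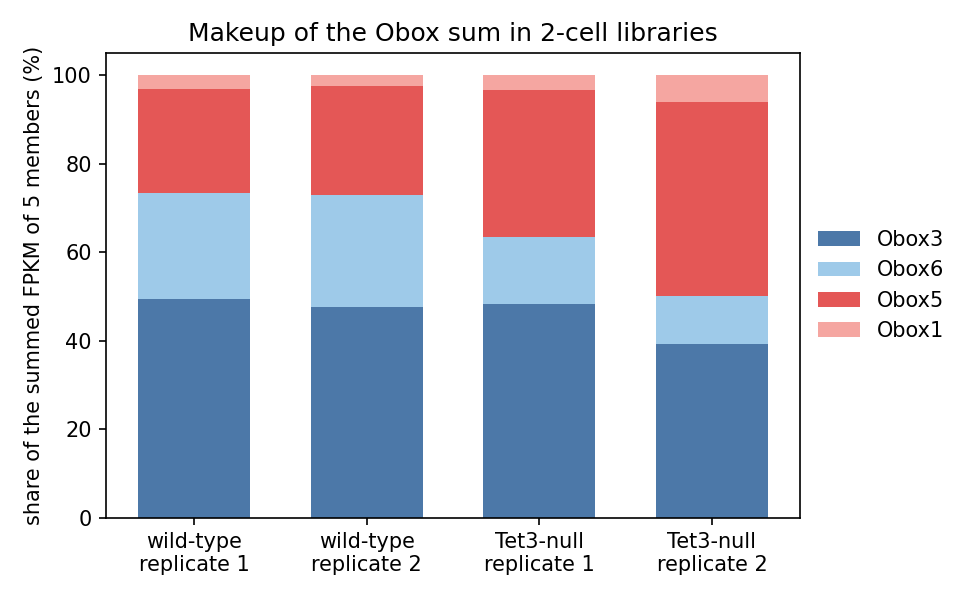
Share of each member in the summed FPKM of the 5 members (percent, stacked bars) in the 4 libraries of 2-cell embryos; Obox2 is at 0. The Obox5 band widens from 23.5% and 24.5% in wild-type to 33.3% and 44.0% in Tet3-null, and the Obox6 band narrows from 24.1% and 25.4% to 15.0% and 10.8%.

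In blastocysts no member was called between genotypes, in a comparison in which limma called 0.0664% of all tested genes. Obox6 had a log2 change of 0.97 (SE 0.41, adjusted p = 0.917), which was 0.46 without the second Tet3-null library with its 15.7 FPKM, and its mean was 2.14-fold higher (5.35 ± 3.02 against 11.5 ± 5.95 FPKM). Obox3 had a log2 change of -0.11, with the 2 Tet3-null values just below the 2 wild-type values. No member had an unadjusted limma p under 0.05, against 5.46% of all genes. The groups did not overlap for 2 of 4, Obox3 lower and Obox5 higher, against 44.2% of all genes, 19% higher and 25.3% lower. Obox1, Obox3 and Obox5 were under 1 FPKM in every blastocyst library and passed the filter only through 2-cell libraries. Obox1 was listed at 0 in all 4 blastocyst libraries, so its change of 0 was fixed. The Obox3 and Obox5 values lie near the floor, so these counts give no support of their own. The family sum was 2.03-fold higher with overlapping groups, and without Obox6 it was at 0.806 of the wild-type sum.

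The direction of the Obox6 difference was opposite at the 2 stages, and the difference of the genotype effects was tested directly. The interaction on the log2 scale was 1.72 for Obox6 (SE 0.59, adjusted p = 0.270), -0.89 for Obox1 (SE 0.41, adjusted p = 0.371), -0.86 for Obox5 (SE 0.25, adjusted p = 0.212) and -0.17 for Obox3 (SE 0.21, adjusted p = 0.741). None of the 4 was called, where limma called 0.14% of all tested genes, and 2 of 4, Obox5 and Obox6, had an unadjusted p under 0.05 against 14.4% of all genes. Obox1 and Obox5 are listed at or near 0 in the blastocyst, so their interaction is nearly their 2-cell change with the sign turned. Without the first Tet3-null 2-cell library both were called (adjusted p = 0.0243 for Obox1 and 0.0176 for Obox5), in a fit that called 12.6% of all tested genes.

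Other homeobox genes were compared from a list. Of 60 listed homeobox genes of the oocyte and early embryo other than the members, 43 were tested, with a list median of -0.09 at the 2-cell stage. There 1 was called, against 2.72% of all tested genes. It was Lbx2, at a mean of 22.0 FPKM in wild-type and 2.90 FPKM in Tet3-null (adjusted p = 0.0460, limma). Calls at this stage depended on the fit. With the replicate block 5 genes were called higher and 2 lower over all genes, against 83 and 285 in the main fit. Whether Lbx2 was among them was not examined. Among the 60 listed homeobox genes and the 5 members, Obox3 ranked 1 by mean level in wild-type 2-cell embryos. It was followed by Crxos1, Obox6, Obox5 and Nanog, with Obox1 at rank 7. In Tet3-null 2-cell embryos the order was Obox3, Obox5, Crxos1, Obox6 and Obox1. By the mean of all 4 blastocyst libraries Crxos1, Nanog and Pou5f1 led, Obox6 ranked 9 and Obox3 ranked 34. Crxos1, the listed name of Crxos, is a double-homeobox gene near the Obox cluster on chromosome 7, beyond Crx in the gene order. It is named for lying on the opposite strand of Crx, and since the libraries do not mark strand, reads from any stretch that both genes cover cannot be told apart. Crxos1 was at 1126 and 1054 FPKM in wild-type and at 813 and 662 FPKM in Tet3-null 2-cell embryos (log2 change -0.57, SE 0.13, adjusted p = 0.0690), and rose to between 3172 and 3587 FPKM in blastocysts. Crx, the photoreceptor homeobox factor and the listed gene nearest the cluster on that side, was between 20.1 and 22.3 FPKM in the 4 2-cell libraries. Of the 12 listed genes nearest the cluster, 6 on each side, 7 were tested. None was called by genotype at the 2-cell stage, where 2.72% of all tested genes were. In wild-type, 13 of the 43 homeobox genes rose and 22 fell between the stages, while of all 13549 tested genes 4857 rose and 5207 (38.4%) fell. Of the 60 listed, 32 were under 1 FPKM in every blastocyst library and 21 in every 2-cell library. Some were thus tested only through the stage in which they are high.

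**Figure D5:**
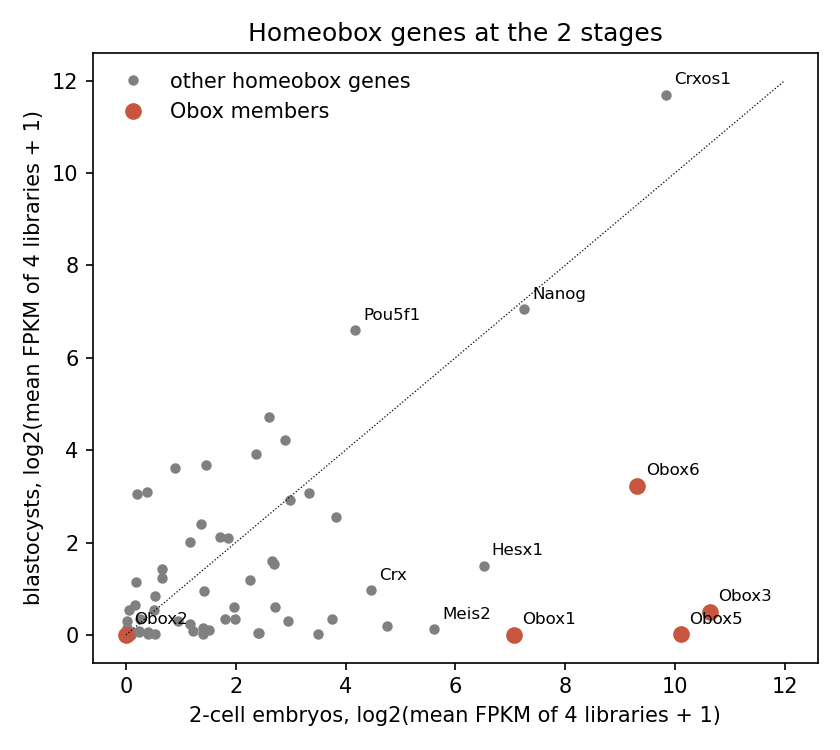
Mean level of each homeobox gene over the 4 2-cell libraries (x axis) and the 4 blastocyst libraries (y axis), as log2(mean FPKM + 1), with Obox members in red and the dotted line marking equal levels. Obox3, Obox5, Obox6 and Obox1 lie far below the line, Crxos1 above it and Nanog near it, and Obox2 sits at the origin.

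Genes of genome activation, among which the Obox factors are known to act, were described from lists written from general knowledge. Of 27 tested genome activation genes of the 2-cell embryo (Zscan4, Tdpoz, Usp17l and similar families), none was called between genotypes at the 2-cell stage. There 2.72% of all tested genes were called, so a list of this size could hold none. The list median was 0.14 against -0.17 for all genes. Between stages, 26 of these 27 fell and 1 rose in wild-type, where 38.4% of all tested genes fell. Of the 30 genes listed, 20 were under 1 FPKM in every blastocyst library. Those of them that were tested passed the filter only through 2-cell libraries, so this count gives no support of its own. Of 23 transcription factors linked to genome activation, none was called between genotypes at the 2-cell stage (list median -0.19). For example, Klf17, a zinc finger factor of the early embryo, was at 129 and 111 FPKM in wild-type and at 99.8 and 90.2 FPKM in Tet3-null (log2 change -0.33, adjusted p = 0.255).

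Oocyte transcripts were compared in the same way. Of 33 tested oocyte regulators and oocyte-expressed genes, 2 were called higher in Tet3-null 2-cell embryos and none lower, with a list median of 0.16, while 0.613% of all tested genes were called higher. Rfpl4, a RING finger gene of the oocyte, was at 401 and 434 FPKM in wild-type and at 793 and 1052 FPKM in Tet3-null (adjusted p = 0.0420, limma). Dppa3, the maternal factor that protects methylation in the early embryo, was at 16289 and 16957 FPKM in wild-type and at 25556 and 23206 FPKM in Tet3-null (adjusted p = 0.0471). The summed level of this list was 33640 and 34265 FPKM in wild-type and 46107 and 46659 FPKM in Tet3-null 2-cell embryos. Without Dppa3 the other 32 genes summed to 17351 and 17308 FPKM in wild-type and to 20551 and 23453 FPKM in Tet3-null, and their part in the Obox1 and Obox5 values was not tested. Of 17 tested blastocyst markers, 1 was called higher in Tet3-null 2-cell embryos, against 0.613% of all tested genes. It was Gata3, at 9.26 and 12.3 FPKM against 5.28 and 5.26 FPKM in wild-type. The calls of Rfpl4, Dppa3 and Gata3 come from the main fit, which called 83 genes higher and 285 lower over all genes. Those numbers were 5 and 2 with the replicate block, and 1 and 2 with only the 2-cell libraries fitted. Whether these genes stayed called was not examined.

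The genes most like each member across the 8 libraries, by the root mean square distance of centred log2(FPKM + 1) were taken by rule. Nearest to Obox5 were Gm97 (distance 0.153), E330034G19Rik (0.185) and Oosp1 (0.259). The distance uses the 2-cell genotype difference and the stage difference, so genes near Obox5 share both by selection. E330034G19Rik was at 943 and 819 FPKM in wild-type and at 1827 and 2226 FPKM in Tet3-null. Nearest to Obox1 were C87499 (0.157), Tgfb2 (0.163) and Nlrp9c (0.192), with Gm4745 at rank 7 (0.229). Nearest to Obox3 were B020004C17Rik (0.0925), Gm4850 (0.218) and Oosp1 (0.279). The genes nearest to Obox6 were farther away: Zscan5b (0.427), Klf17 (0.511) and Jazf1 (0.519), and Zscan5b was at 265 and 261 FPKM in wild-type and at 261 and 205 FPKM in Tet3-null 2-cell embryos. Nearest to the family sum were Tcstv1 (0.426), Khdc1b (0.490) and Rfpl4b (0.508). Pearson's r over the 8 libraries was 0.988 for Jazf1 and higher for the others, and the points share the stage difference and the library scaling.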

How the data were processed

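The 8 RNA-seq libraries were made from lysed embryo pools with the SMARTer Ultra Low Input kit and a DNA library kit that does not mark strand, per the labels' protocols. The authors deposited FPKM per gene; the submitters' processing notes name Bowtie2 2.1.0, Cufflinks 2.2.0, TopHat2 2.0.10 and the build mm9, while annotation, settings and the treatment of shared reads are not given there or in the labels. From these values, genes reaching 1 FPKM in 2 or more libraries (13549) were taken as log2(FPKM + 1). They were fitted in limma 3.58.1 under R 4.3.3 with a mean per group and an intensity trend. Each gene had 1 spread over all 8 libraries. Residual degrees of freedom were 4 and prior ones 3.07, the tests were two-sided, p-values were adjusted over all tested genes by Benjamini-Hochberg, and genes were called under 0.05. The pipeline was tested on simulated data. A permutation test of 2 against 2 libraries cannot reach 0.05 and was not used. Values in a group are given as mean ± SD of 2 libraries.

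The members, the gene lists and the alternatives were chosen with earlier results of these data known. The rule for naming genes beside the members took the called members of each list, otherwise the highest 2. It also took the nearest 6 listed genes on each side of the cluster and the 3 genes most like each member. Not all genes under this rule are named above, and for the lists without a call it was not followed in full. Other genes named as examples were chosen after their values were seen. Relative depth within a stage, estimated from the ratios of values under 0.15 FPKM, was 1.02 to 1.22 in the other 2-cell libraries and 1.13 to 1.30 in the other blastocyst libraries, relative to wild-type replicate 1. Replicate numbers were not used as a pairing in the main fit, and the closing section reports a check. Transcript stretches were counted in GENCODE M21, and promoters came from a RefSeq table. Alternatives were a pseudocount of 0.1, no filter, no intensity trend, 3 other scalings (median of ratios, quantile, a common total without small RNA genes), a fit of only the compared libraries, a replicate block and leaving out each library, where the lone library left in a group is assumed to vary like those of the other groups.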

Additional observations from a re-analysis of the deposited data

How the results depend on the processing

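All 4 tested members fell between stages in both genotypes under every alternative run. In the main fit 38.4% of all tested genes fell in wild-type and 35.1% in Tet3-null. Obox1, Obox3 and Obox5 were under 1 FPKM in every blastocyst library and passed the filter only through 2-cell libraries, so this count gives no support of its own. Between genotypes at the 2-cell stage, 1 member (Obox5, adjusted p = 0.0437) was called when values were rescaled to a common total without small RNA genes. There its log2 change was 0.87 (SE 0.19) against 0.88 (SE 0.17), and 4.96% of 14349 genes were called against 2.72% of 13549. The count was 0 to 2 when 1 library was left out, with 2 (Obox1 and Obox5) without Tet3-null replicate 1, where 25.5% of all genes were called. For the difference between stages the range was also 0 to 2, reached without the same library (Obox1 adjusted p = 0.0243, Obox5 adjusted p = 0.0176), where 12.6% of all genes were called against 0.14%. The 2-cell change of Obox3 reversed with quantile normalization (-0.077) and without Tet3-null replicate 1 (-0.065), both under its standard error, and was 0.18 without Tet3-null replicate 2. The 2-cell ratio of the family sum was 1.34 without Obox6, 1.40 with median-of-ratios scaling, 1.17 with Gm4745 (chosen after seeing the data) and 1.14 to 1.18 when 1 library was left out. The blastocyst ratio was 0.806 without Obox6, a reversal, and 1.30 to 3.25 when 1 library was left out. The cause of these shifts was not tested. Fitting only the 4 libraries of the 2-cell comparison called 1 gene higher and 2 lower over all genes, against 83 and 285.

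Samples with the same replicate number did not deviate together over the tested genes (r of deviations -0.0756 between the 2-cell groups and 0.0184 between the blastocyst groups). A pairing that moved only few genes would not show in this r. With the replicate block, 0 members were called between genotypes at the 2-cell stage (Obox5 adjusted p = 0.149) and 4 between stages, and no member's call changed. Read totals are unknown, so no counting error can be given for the low blastocyst values.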
